A study of Homo sapiens with 2 samples.

Results

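AMP-activated protein kinase (AMPK), its upstream kinase LKB1, the tuberous sclerosis (TSC) proteins and REDD1 are described here through the 10 genes that encode them, in 786-O, a long-established human cell line from a clear cell renal carcinoma. The genes were chosen by name, as PRKAA1, PRKAA2, PRKAB1, PRKAB2, PRKAG1, PRKAG2, STK11, TSC1, TSC2 and DDIT4, from 22595 gene symbols in the deposited tables. RNA was sequenced from 1 culture in medium with 0 mM glucose and from 1 culture in medium with 25 mM glucose, both labelled as the same line. The labels also carry a code that differs between the samples, LucG without glucose and LucF with glucose, and that they do not explain. Whether it marks a further difference between the cultures is not known. The labels give neither the hours spent without glucose nor any further treatment. There were no replicates, so each difference below is between 2 libraries, has no replicate check and no p-value, and cannot be told apart from any other difference between the cultures.

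AMPK is a heterotrimer that senses cellular energy. A catalytic alpha subunit is held by a beta scaffold to a gamma subunit, which binds AMP, ADP and ATP, and LKB1 phosphorylates the alpha subunit to switch the kinase on when ATP runs low. Active AMPK turns down anabolic work, in part by phosphorylating TSC2, whose complex with TSC1 keeps the GTPase RHEB inactive and so restrains mTORC1, the kinase complex that promotes growth. REDD1, the product of DDIT4, restrains mTORC1 through the TSC complex and is known as a gene switched on by hypoxia, endoplasmic reticulum stress and glucocorticoids. Glucose starvation acts on AMPK mainly through its phosphorylation, which transcript counts do not show.

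The library without glucose held 31345853 counts and the library with glucose 27317598. Levels are given in CPM, counts per 1e6 of the effective library size, and, to compare genes with each other, in CPM per kilobase of gene model. Each ratio is the library without glucose over the library with glucose, with a 95% interval that covers counting error only. A gene was called different when this whole interval lay above 2-fold or below 0.5-fold. The labelled cell type was checked on 9 markers of renal epithelium and renal carcinoma, all of which were measured, summing to 6728 CPM without glucose and 5252 CPM with glucose. Most of the sum was VIM, an intermediate filament gene, with 5791 CPM without glucose and 4336 CPM with glucose. VIM and EPAS1 were higher without glucose and the other 7 markers lower, among them PAX8, a renal transcription factor, at 232 and 244 CPM, and LHX1, another, at 3.38 and 19.5 CPM. CDH6, a cadherin of the renal tubule, had 8.36 CPM without glucose against 192 CPM with glucose. The part of these marker differences in the results below was not tested. The 5 leukocyte, 5 endothelial and 4 erythroid markers each summed to under 2 CPM in both libraries. Of all counts, 7.99% without glucose and 5.83% with glucose fell on snoRNA, scaRNA and microRNA genes. In bulk RNA, fewer cells that express a gene and less RNA per cell cannot be told apart.

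All 10 genes were measured in both libraries, with 733 to 12447 counts each. None was called higher and none lower at 2-fold, where 3.75% of the 14240 measured genes were called higher and 6.20% lower. At a smaller size of 1.5-fold, 0 of the 10 were higher and 1, PRKAA2, was lower, where 10.2% and 12.6% of measured genes were. With the scaling used here, the interval left out equal levels for 9 of the 10 genes, 6 of them above and 3 below. It did so for 73.9% of all measured genes, which shows how narrow counting error is at this depth. The median log2 ratio of the 10 genes was 0.12, with a range of -0.91 to 0.53, beside a median of 0.01 and quartiles at -0.45 and 0.42 for all measured genes. Regardless of direction, the median size of the log2 ratio was 0.41 in the 10 genes and 0.43 in all measured genes. In both measures the 10 transcripts lay close to the typical measured gene.

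**Figure D1:**
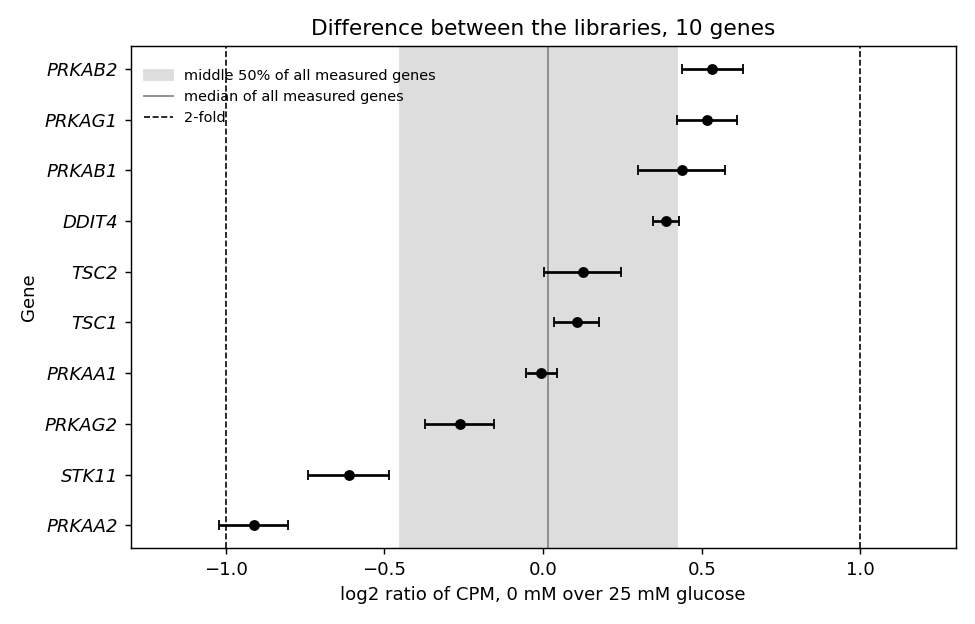
Log2 ratio of CPM, library without glucose over library with glucose, for the 10 genes (points) with 95% counting intervals (bars), ordered by ratio. The grey band holds the middle 50% of all measured genes, -0.45 to 0.42, the grey line is their median, and the dashed lines mark 2-fold. PRKAB2 lies highest at 0.53 and PRKAA2 lowest at -0.91, and no interval lies wholly beyond 2-fold.

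Of the catalytic subunits, PRKAA1 was nearly level between the libraries and PRKAA2 was lower without glucose. PRKAA1 encodes alpha1, the broadly expressed catalytic subunit, and lies on the minus strand at chr5:40759481-40798297 in hg19. It had 6954 counts without glucose and 6323 with glucose, or 226 and 227 CPM, a ratio of 0.996 (interval 0.963 to 1.03). With the scaling used here, PRKAA1 was the only one of the 10 genes whose interval held equal levels. Its log2 ratio of -0.01 became -0.06 with scaling by total counts. It took the other sign, 0.10, when ratios were centred on genes of like length. For genes this close to level, whether the interval holds equal levels depends on the scaling.

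PRKAA2 encodes alpha2, known from skeletal muscle, heart and liver, and lies on the plus strand at chr1:57110990-57181008 in hg19. It had 1081 counts without glucose and 1843 with glucose, or 35.2 and 66.2 CPM. That is 1.88-fold lower without glucose (interval 1.74 to 2.03), with a log2 ratio of -0.91 that lay at percentile 12.1 of all measured genes. The interval reached across 2-fold, so the gene missed the call. More than 10 reads fell on 8 of its 9 exons without glucose and on all 9 with glucose. With 9343 bases its gene model is the longest of the 10, in the longest of 10 classes by length, where the median log2 ratio of all genes was -0.21. Relative to that class the log2 ratio of PRKAA2 was -0.70, and the part of length in the difference was not tested.

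Because both alpha genes were counted in the same library, their ratio does not depend on how the libraries were scaled. Per length, PRKAA2 made up 7.85% of alpha transcripts without glucose (interval 7.39 to 8.33%) and 13.8% with glucose (13.2 to 14.4%). The intervals did not overlap, and the ratio of PRKAA2 to PRKAA1 was 0.533 times as high without glucose as with glucose (interval 0.491 to 0.580). In both libraries PRKAA1 was therefore the main alpha transcript, 11.7 times the level of PRKAA2 per length without glucose and 6.26 times with glucose. Counting intervals left out equal levels for 73.9% of single measured genes. How often the intervals of other gene pairs fail to overlap was not tested.

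Both beta subunit genes were moderately higher without glucose. The beta subunits carry a glycogen-binding module and hold the complex together. PRKAB1, on the plus strand at chr12:120105761-120119429, had 1095 counts without glucose and 733 with glucose, or 35.6 and 26.3 CPM, a 1.35-fold ratio (interval 1.23 to 1.49). PRKAB2, on the minus strand at chr1:146626685-146644129, had 2318 counts without glucose and 1451 with glucose, or 75.4 and 52.1 CPM, a 1.45-fold ratio (interval 1.35 to 1.55), the highest of the 10 genes. Their log2 ratios, 0.44 and 0.53, lay at percentiles 75.8 and 80.3 of all measured genes. PRKAB2 is a long model, of 5415 bases, and relative to genes of like length its log2 ratio was 0.70.

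Judged by counting error and without regard to length trends, the balance of the beta genes did not differ detectably between the libraries. PRKAB2 made up 48.3% of beta transcripts per length without glucose (interval 46.5 to 50.2%) and 46.7% with glucose (44.5 to 48.9%). The ratio of PRKAB2 to PRKAB1 without glucose was 1.07 times that with glucose, with an interval of 0.952 to 1.20 that held equality. Relative to genes of like length, PRKAB1 had a log2 ratio of 0.39 and PRKAB2 of 0.70. These lie further apart than the uncentred 0.44 and 0.53, and the part of length in the balance was not tested.

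The gamma genes differed in opposite directions. Gamma subunits bind adenine nucleotides through their CBS repeats, and PRKAG2 is also the gene mutated in an inherited cardiomyopathy with glycogen storage. PRKAG1, the widely expressed gamma1, on the minus strand at chr12:49396055-49412592, had 2335 counts without glucose and 1479 with glucose, or 75.9 and 53.1 CPM, a 1.43-fold ratio (interval 1.34 to 1.53). PRKAG2, on the minus strand at chr7:151253201-151574316, had 1316 counts without glucose and 1431 with glucose, or 42.8 and 51.4 CPM, 1.20-fold lower without glucose (interval 1.11 to 1.29). PRKAG3, the gamma3 gene of skeletal muscle, had 1 count in each library and was not measured.

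Within the gamma pair, the share of PRKAG2 per length was 19.7% without glucose (interval 18.7 to 20.8%) and 29.7% with glucose (28.2 to 31.2%), and these intervals did not overlap. The ratio of PRKAG2 to PRKAG1 was 0.583 times as high without glucose as with glucose (interval 0.527 to 0.644). As for the alpha pair, how often other gene pairs differ beyond counting error was not tested. PRKAG2 has 3 RefSeq transcripts of different lengths in its gene model of 3966 bases and 18 exons, of which 14 without glucose and 13 with glucose had more than 10 reads. Which transcripts were made is not in the tables, so its level per length is an approximation.

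**Figure D2:**
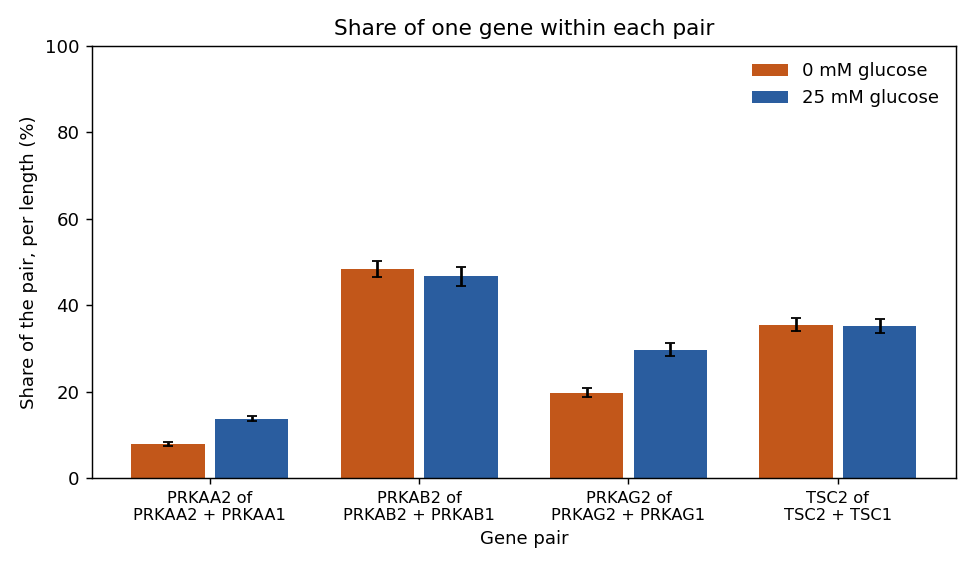
Share of the first named gene within each pair of genes, in percent of counts per length of gene model, in the library without glucose (orange, left) and with glucose (blue, right). Bars start at 0 and error bars are 95% counting intervals. PRKAA2 (7.85% and 13.8%) and PRKAG2 (19.7% and 29.7%) hold smaller shares without glucose, while the intervals of PRKAB2 and TSC2 overlap between the libraries. How often the intervals of other gene pairs overlap was not tested.

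Summed per length, alpha transcripts came to 47.9 CPM per kilobase without glucose and 51.4 with glucose, beta transcripts to 28.8 and 20.6, and gamma transcripts to 54.7 and 43.7. Beta was the least abundant class in both libraries. The sum of alpha was 1.66 times that of beta without glucose and 2.49 times with glucose, so the classes lay closer together without glucose. The sum of gamma was above that of alpha without glucose (alpha over gamma 0.876) and below it with glucose (1.18). These sums carry no interval. The PRKAG1 model is short, with 1729 bases against 5120 for PRKAA1 and 9343 for PRKAA2. Relative to genes of like length the log2 ratio of PRKAG1 was 0.37 instead of 0.52, and the part of length in this order was not tested. All 6 subunit genes together came to 131 CPM per kilobase without glucose and 116 with glucose.

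STK11, which encodes LKB1, the main kinase upstream of AMPK and a tumour suppressor, was lower without glucose. It lies on the plus strand at chr19:1205798-1228434 and had 871 counts without glucose and 1207 with glucose, or 28.3 and 43.3 CPM. This is 1.53-fold lower without glucose (interval 1.40 to 1.67), and the log2 ratio of -0.61 lay at percentile 19.1 of all measured genes. All 10 exons had more than 10 reads in both libraries. LKB1 works in a complex with a STRAD pseudokinase and an MO25 scaffold. Of the 7 genes listed for these partners and for the other kinases that act on AMPK, 0 were called in either direction. Their median log2 ratio was -0.11. Over all measured genes, 3.75% were called higher and 6.20% lower, so a list this short would hold few calls or none. Where either library reached 10 CPM, the largest differences were those of CAB39, which encodes MO25 alpha, with 127 CPM without glucose and 188 CPM with glucose (log2 ratio -0.57), and of CAMKK1, a calcium-dependent kinase, with 28.2 and 34.6 CPM (-0.30). STRADB, a STRAD pseudokinase gene, lay below that level with 6.28 and 9.05 CPM (-0.53). CAB39 was thus lower without glucose by about as much as STK11.

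TSC1 and TSC2 were close to level. TSC1 encodes hamartin, which stabilises the complex, and lies on the minus strand at chr9:135766735-135820020. It had 3450 counts without glucose and 2904 with glucose, or 112 and 104 CPM, a 1.08-fold ratio (interval 1.02 to 1.13). TSC2 encodes tuberin, the GTPase-activating subunit that AMPK phosphorylates, and lies on the plus strand at chr16:2097990-2138713. It had 1231 counts without glucose and 1023 with glucose, or 40.0 and 36.7 CPM, a 1.09-fold ratio (interval 1.003 to 1.19). The lower bounds of both lay close to equal levels, and with scaling by total counts the log2 ratios of TSC1 and TSC2 were 0.05 and 0.07 instead of 0.11 and 0.12. Relative to genes of like length they were 0.32 and 0.29.

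The balance of the pair did not differ detectably, with TSC2 at 35.4% of the pair per length without glucose (interval 33.9 to 36.9%) and 35.1% with glucose (33.5 to 36.8%). The ratio of TSC2 to TSC1 without glucose was 1.01 times that with glucose (interval 0.919 to 1.12). PKD1 overlaps TSC2 by 3 bases on the other strand, with 426 counts without glucose and 402 with glucose. No other gene model in the tables overlaps any of the 10 genes. The TSC partner TBC1D7 had 21.3 CPM without glucose and 20.1 CPM with glucose, and their target RHEB 13.4 and 13.5 CPM (log2 ratios 0.08 and -0.01). None of the 3 genes of this arm was called, where 3.75% of all measured genes were called higher and 6.20% lower.

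DDIT4 was the most abundant of the 10 transcripts and was 1.31-fold higher without glucose. It lies on the plus strand at chr10:74033677-74035797 and had 12447 counts without glucose and 8620 with glucose, or 405 and 309 CPM (interval of the ratio 1.27 to 1.34). Its log2 ratio of 0.39 lay at percentile 72.9 of all measured genes, inside the middle 50% of genes. With glucose its level already lay at percentile 96.8 of all genes per length. The log2 ratio was 0.33 with scaling by total counts, 0.24 relative to genes of like length and 0.44 relative to genes of like GC content. The 5 genes nearest to DDIT4 in the plane of log2 CPM without and with glucose, over these 2 libraries, were RPL17, SNORA43, ESYT1, KIAA1429 and SNORA3, at distances of 0.04 to 0.11 on the log2 scale.

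**Figure D3:**
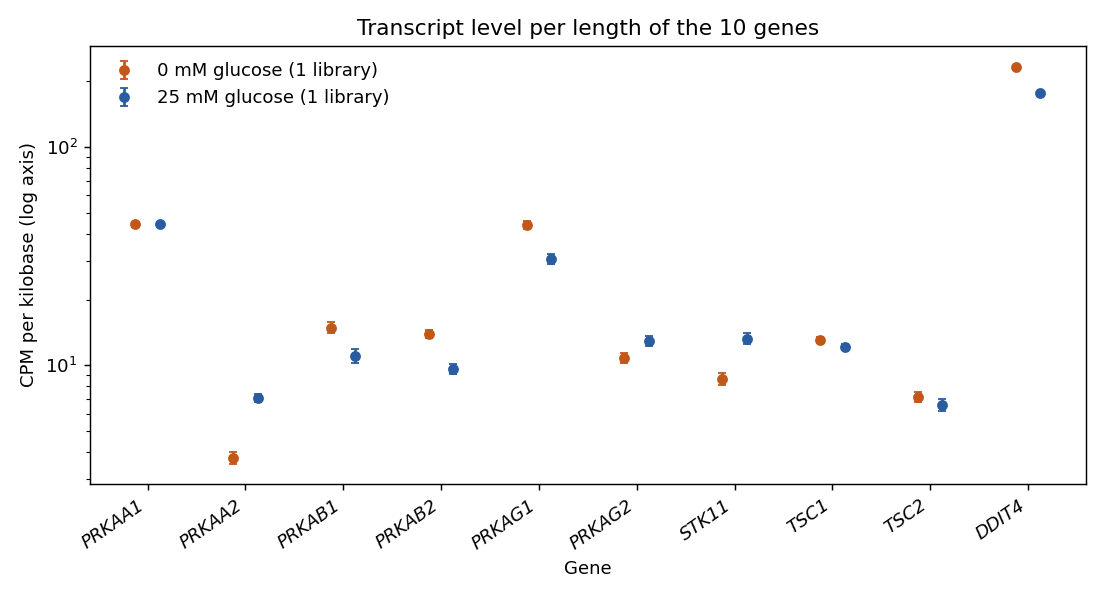
Level of the 10 genes in CPM per kilobase of gene model (log axis) in the library without glucose (orange, left) and with glucose (blue, right), with 95% counting intervals. DDIT4 stands highest in both, at 231 and 177 CPM per kilobase, and the lowest gene is PRKAA2 (3.76) without glucose and TSC2 (6.57) with glucose.

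Per length, the order without glucose was DDIT4 (231 CPM per kilobase), PRKAA1 (44.2), PRKAG1 (43.9), PRKAB1 (14.9), PRKAB2 (13.9), TSC1 (13.1), PRKAG2 (10.8), STK11 (8.67), TSC2 (7.16) and PRKAA2 (3.76). Counting intervals of neighbours overlapped between PRKAA1 and PRKAG1, between PRKAB1 and PRKAB2 and between PRKAB2 and TSC1. With glucose the order was DDIT4 (177), PRKAA1 (44.3), PRKAG1 (30.7), STK11 (13.3), PRKAG2 (13.0), TSC1 (12.1), PRKAB1 (11.0), PRKAB2 (9.62), PRKAA2 (7.08) and TSC2 (6.57). Here the intervals overlapped between STK11 and PRKAG2, between PRKAG2 and TSC1, between TSC1 and PRKAB1 and between PRKAA2 and TSC2. DDIT4 and PRKAA1 held the first places in both libraries, and STK11 stood in place 8 without glucose and 4 with glucose.

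The log2 ratios of factors known to act on DDIT4 ranged from -0.25 to 4.20. Of 8 such genes, 2 were called higher without glucose and 0 lower, and the median log2 ratio was 0.39, beside 3.75% higher, 6.20% lower and a median of 0.01 in all measured genes. DDIT3 encodes CHOP, a factor of endoplasmic reticulum stress, and had 342 CPM without glucose against 18.6 CPM with glucose (log2 ratio 4.20). EPAS1, the HIF-2 alpha subunit, had 422 CPM without glucose and 134 CPM with glucose (1.65). ATF4, the central factor of the integrated stress response, had 300 and 222 CPM (0.44), a ratio of 1.35 with an interval of 1.31 to 1.40 that overlaps the interval of DDIT4. CEBPB (0.55), NR3C1, the glucocorticoid receptor (0.34), and ELK1 (0.06) were within 2-fold, and HIF1A (-0.25) and SP1 (-0.22) had log2 ratios below 0. In general, ATF4 is controlled largely through its translation and HIF proteins through their stability. These counts show neither, and how far either holds in this line was not tested.

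The 250 bases upstream of each start site were read from RefSeq on GRCh38.p14, a later build than the hg19 of the tables, and all 10 genes had an entry, with 15 start sites in all. They were searched on both strands for ACGTG, a form of the core bound by HIF. Other forms of that core were not searched. Also searched were TGATGNAA, the composite element bound by C/EBP and ATF factors such as CHOP and ATF4, and CACGTG. The last is an E-box that contains the first motif. Of 35116 start sites in the reference table, 18.5% hold ACGTG, 3.14% TGATGNAA and 6.34% CACGTG. Of the 15 start sites, 4 held ACGTG, in DDIT4, TSC2, PRKAG1 and STK11, and 1, in TSC2, also held the other 2 motifs. These 4 are shown because they carry every match among the 10 genes, with capitals marking the matches and the last base next to the start site.
DDIT4, chr10:72273674-72273923, plus strand: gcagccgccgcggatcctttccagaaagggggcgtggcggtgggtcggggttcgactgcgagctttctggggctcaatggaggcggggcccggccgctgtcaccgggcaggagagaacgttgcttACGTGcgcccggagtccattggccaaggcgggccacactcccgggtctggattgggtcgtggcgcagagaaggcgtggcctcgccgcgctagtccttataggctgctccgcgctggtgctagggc
TSC2, chr16:2047735-2047984, plus strand: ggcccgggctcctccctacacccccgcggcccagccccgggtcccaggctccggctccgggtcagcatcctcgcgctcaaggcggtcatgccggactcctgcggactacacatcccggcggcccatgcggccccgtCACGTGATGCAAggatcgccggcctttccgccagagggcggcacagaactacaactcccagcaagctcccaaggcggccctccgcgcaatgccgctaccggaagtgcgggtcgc
PRKAG1, chr12:49018777-49019026, minus strand: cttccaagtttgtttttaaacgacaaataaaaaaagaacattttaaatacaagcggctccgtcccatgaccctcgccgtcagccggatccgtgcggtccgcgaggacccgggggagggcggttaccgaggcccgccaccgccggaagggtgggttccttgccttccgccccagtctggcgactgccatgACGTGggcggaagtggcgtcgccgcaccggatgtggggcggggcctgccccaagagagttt
STK11, chr19:1205528-1205777, plus strand: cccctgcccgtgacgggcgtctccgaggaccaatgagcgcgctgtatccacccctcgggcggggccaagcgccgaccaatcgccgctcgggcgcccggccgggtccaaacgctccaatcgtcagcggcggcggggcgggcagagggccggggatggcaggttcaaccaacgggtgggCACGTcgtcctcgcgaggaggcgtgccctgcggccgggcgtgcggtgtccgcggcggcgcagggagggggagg

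The DDIT4 match starts 125 bases before the start site. In TSC2 the E-box and the C/EBP-ATF element overlap in 1 run of capitals, where the palindromic E-box is read as ACGTG on both strands. The genes with a match had ratios on both sides of equal levels, 1.31 for DDIT4, 1.09 for TSC2, 1.43 for PRKAG1 and 0.654 for STK11. PRKAB2, with the highest ratio, and PRKAA2, with the lowest, had no match to the searched motifs in this window. The PRKAA2 window is 83.2% G and C. A match is a match of letters and was not tested for binding.

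The sestrins and REDD2 are stress-induced proteins that also restrain mTORC1. Of these 4 genes, 0 were called, beside 3.75% of all measured genes called higher and 6.20% lower. SESN2, a target of ATF4 that acts on the GATOR2 complex, had 131 CPM without glucose and 76.3 CPM with glucose, a 1.72-fold ratio whose interval of 1.63 to 1.81 lay wholly above that of DDIT4. SESN1 had 10.1 and 13.1 CPM (log2 ratio -0.37). SESN3 and the REDD2 gene DDIT4L were near the limit of measurement, with 26 and 8 counts without glucose against 9 and 17 with glucose. Of 6 genes listed for the turnover of REDD1, 0 were called, beside the same shares of all measured genes. The largest differences were those of BTRC, an F-box protein (29.0 and 39.9 CPM, log2 ratio -0.46), and the ubiquitin ligase gene HUWE1 (640 and 772 CPM, -0.27).

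**Figure D4:**
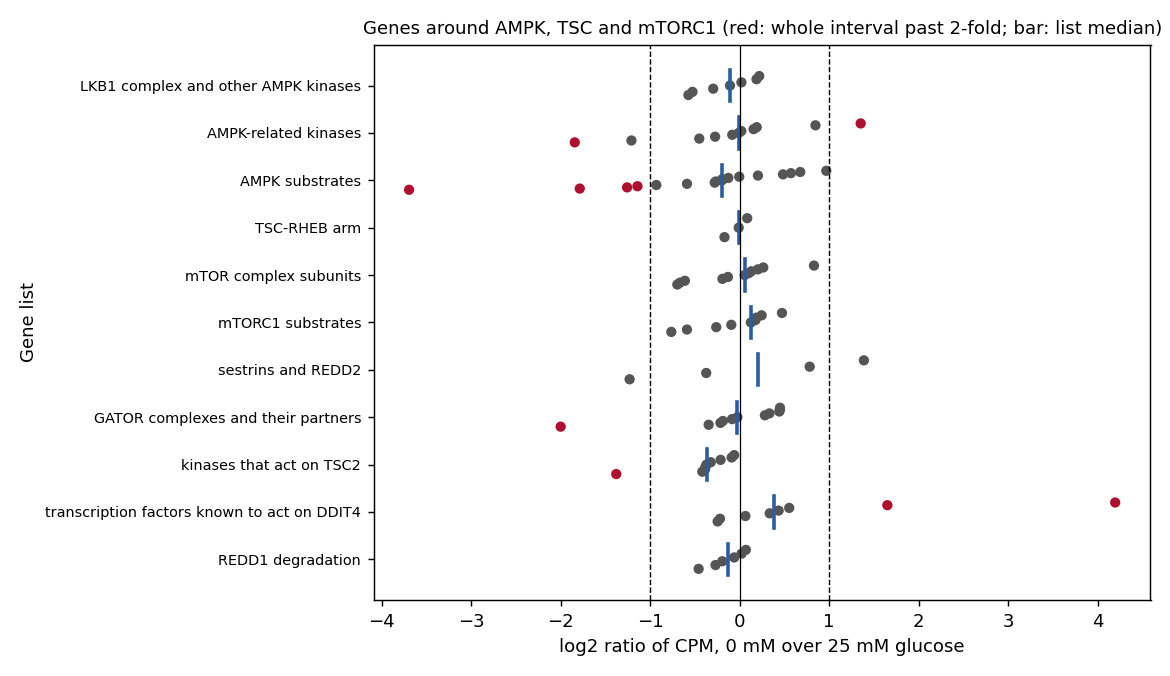
Log2 ratio of CPM, library without glucose over library with glucose, for each measured gene of 11 lists around AMPK, TSC and mTORC1 (points), with list medians (blue bars). Red points are genes whose whole 95% counting interval lies past 2-fold, and dashed lines mark 2-fold. The listed kinases that act on TSC2, directly or through another kinase, all lie left of 0 and DDIT3 lies farthest right at 4.20.

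Across all lists, 93 of 95 distinct genes were measured, of which 3 were called higher and 7 lower without glucose, with a median log2 ratio of -0.09. These counts come to 3.23% and 7.53% of the listed genes, close to the 3.75% and 6.20% of all measured genes. The AMPK substrates held 4 of the lower genes among 17 measured, with 0 higher and a median of -0.20, beside the 6.20% of all measured genes called lower. They were TXNIP, an arrestin-like brake on glucose uptake (1.07 CPM without glucose and 13.9 CPM with glucose, log2 ratio -3.69), SREBF1, a transcription factor of lipid synthesis (20.4 and 70.3 CPM, -1.79), PFKFB3, which makes the activator of phosphofructokinase (99.5 and 238 CPM, -1.26), and ACACA, acetyl-CoA carboxylase alpha (168 and 371 CPM, -1.14). ACACB, the mitochondrial carboxylase, had 12.0 and 22.8 CPM (-0.93), and GFPT1, the first enzyme of hexosamine synthesis, had 468 and 239 CPM (0.97). Both missed the call.

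LKB1 also activates a family of AMPK-related kinases, of which 11 of 12 were measured, 1 was called higher and 1 lower, with a median of -0.01. In a list of this size 1 gene is 9.09%, beside 3.75% of all measured genes called higher and 6.20% lower. SIK1, a salt-inducible kinase, had 119 CPM without glucose and 46.7 CPM with glucose (log2 ratio 1.35). BRSK1, a kinase known from neurons, had 16 counts without glucose and 52 with glucose (-1.84), with an upper bound of -1.01 that only just passed and did not pass with upper-quartile scaling. NUAK2 had 40.2 and 22.3 CPM (0.85) and SIK2 49.9 and 68.2 CPM (-0.45).

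None of 11 mTOR complex genes was called, and their median log2 ratio was 0.06. Beside this list and the next ones stand 3.75% called higher and 6.20% lower over all measured genes. MLST8, a subunit of both mTOR complexes, had 32.5 CPM without glucose and 18.3 CPM with glucose (0.83), and TELO2, which helps to assemble them, had 9.73 and 15.8 CPM (-0.70). Of 9 mTORC1 substrates 0 were called, with a median of 0.12. Among them EIF4EBP2, a translation repressor, had 70.0 and 119 CPM (-0.76), and ULK1, the autophagy kinase that AMPK and mTORC1 both phosphorylate, had 8.07 and 12.1 CPM (-0.59). Of 11 genes of the GATOR complexes and their partners, 1 was called lower, GATSL3, the arginine sensor CASTOR1, with 2.60 and 10.4 CPM (-2.00). SLC38A9, a lysosomal arginine transporter, and SEH1L, a GATOR2 subunit, had log2 ratios of 0.45 each.

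The 9 genes listed as kinases that act on TSC2, directly or through another kinase, had log2 ratios below 0 in 9 of 9. Their median was -0.37. GSK3B, the nearest to 0 at -0.06 (interval -0.15 to 0.02), was at -0.02 with upper-quartile scaling. GSK3A, at -0.09, also had an interval that held equal levels (-0.19 to 0.02). Of all 14240 measured genes, 6987 had log2 ratios below 0. One of the 9 was called lower, where 6.20% of all measured genes were, and it was RPS6KA1, the kinase RSK1, with 24.9 CPM without glucose and 64.7 CPM with glucose (-1.38). AKT2 had 77.3 and 103 CPM (-0.42), and MAPK3, the kinase ERK1, had 17.5 and 22.8 CPM (-0.39).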

How the data were processed

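RNA from 1 culture without glucose and 1 with glucose was extracted with Trizol and sequenced, per the labels' protocols. The deposited counts were whole read counts per gene model, per the file headers, on hg19, per the submitters' processing notes. The deposited RPKM values (a read density by length and depth, per the file headers) served only as an alternative scale, and the deposited number of exons with over 10 reads as a description. No label or header names the aligner, the counting program or the use of strand.

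Of 24364 rows, 528 duplicated the place, length and counts of a differently named row and were removed, and rows sharing a symbol were added up. Library sizes were scaled by TMM (edgeR 4.0.16, R 4.3.3; factors 0.981 without glucose and 1.02 with glucose) on the 14240 symbols with at least 20 counts over both libraries, called measured. Exact 95% Clopper-Pearson intervals of the count share, and exact conditional intervals for ratios within pairs, were computed with scipy 1.17.1 in Python 3.11.15. They cover counting error only, because there was 1 library per group. Where PCR copies of 1 molecule are counted as separate reads, the intervals are too narrow even for counting error. No test could be made between single libraries. The procedure was tested on simulated data.

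The 10 genes and 12 lists were chosen with earlier results of these data known. PRKAG3 formed a list of its own, and some genes of the lists are not reported here. Named in each list were the genes past the rule of size and up to 2 others with the largest absolute log2 ratio at 10 CPM or more in either library. Named besides were the factors acting on DDIT4. STRADB, GSK3A, GSK3B, SESN3 and DDIT4L were named outside this rule, after their values were seen. DEPDC6 and GATSL3 are the tables' symbols for DEPTOR and CASTOR1. Alternatives included the size factors of DESeq2 1.42.0.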

Additional observations from a re-analysis of the deposited data

How the results depend on the processing

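No paired analysis was possible because there was only 1 library without glucose and 1 with glucose, and so no replicate could be left out. None of the 10 genes was called at 2-fold under scaling by total counts, DESeq2 size factors or upper-quartile factors, with small RNA genes left out, with repeated rows kept, with genes of at least 1 count, with ratios centred on length or GC classes, or at 3-fold, and 1 was called lower at 1.5-fold. Of the 93 measured listed genes, 7 were higher and 9 lower at 1.5-fold, where 10.2% and 12.6% of all measured genes were. At 3-fold 2 were higher and 3 lower, against 3 higher and 7 lower at 2-fold. Among the listed genes, centring on length gave 4 higher and 5 lower. With upper-quartile factors, with small RNA genes left out and with GC centring, 6 were lower. No share over all measured genes is given for 3-fold or for these alternatives. Centring on GC classes was chosen after seeing the data, and 86.6% of measured genes had a GC value. Log2 ratios of 9 of the 10 genes kept their direction under every scaling and centring, while PRKAA1 ran from -0.06 to 0.10. PRKAA2 ran from -0.97 to -0.70, STK11 from -0.67 to -0.55, PRKAB2 from 0.48 to 0.70 and DDIT4 from 0.24 to 0.44. Centring on length moved 7 of the 10 beyond their counting interval. As shares of raw counts without length, PRKAA2 took 13.5% without glucose and 22.6% with glucose, and PRKAB2 67.9% and 66.4%. PRKAG2 took 36.0% and 49.2%, and TSC2 26.3% and 26.1%, since the gene models differ in length. Leaving out length cannot change how the ratio of a pair differs between the libraries, but centring on length can. It put PRKAA1 and PRKAA2 at 0.10 and -0.70 instead of -0.01 and -0.91. For PRKAB1 and PRKAB2 it gave 0.39 and 0.70 instead of 0.44 and 0.53. For PRKAG1 and PRKAG2 it gave 0.37 and -0.19 instead of 0.52 and -0.26. TSC1 and TSC2 came to 0.32 and 0.29 instead of 0.11 and 0.12. Depth limited only genes with few counts, such as BRSK1, SESN3 and DDIT4L.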
